A study of Mus musculus with 22 samples.

Results

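The lungs of BALB/c mice that inhaled ovalbumin (OVA) for about a month were compared with the lungs of mice that inhaled phosphate-buffered saline (PBS) on the same schedule. By their group labels, 7 of the 22 libraries in the series belong to this comparison: 4 OVA libraries, called a to d here, and 3 PBS libraries, numbered 1 to 3, each given as a biological replicate. All mice, aged 49 days, had been sensitized intraperitoneally, received a booster at 63 days and inhaled the challenge from 70 days of age, 3 times a week for 4 weeks, a course that the titles give as 30 days. The titles call the OVA mice asthmatic and the PBS mice normal, although the treatment text describes both as sensitized. What was injected is not given in the sources used here, and the OVA columns could be tied to their group but not to a replicate number.

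Repeated inhalation of an allergen by sensitized mice is a standard model of allergic asthma. Allergen taken up in the airway activates T helper type 2 cells, which release interleukins 4, 5 and 13; these cytokines drive antibody class switching, eosinophil growth and mucus secretion, and they push macrophages into an alternative activation state marked by arginase and chitinase-like proteins. Epithelial alarmins such as interleukin 33 amplify the response, and plasma cells secrete the allergen-specific antibodies. With long exposure the model is used to study airway remodelling, in which smooth muscle and matrix increase.

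Expression was given as FPKM, fragments scaled to gene length and to the total of the library, and differences were tested on log2(FPKM + 0.5), so that the fold of a gene near 0 is understated. A gene passed at an adjusted p under 0.05 over the 15682 genes tested, with the spread estimated over all 22 libraries. The series' design text names trachea while the sample labels name lung; alveolar type 2 cell markers summed to between 18587.5 and 20849.5 FPKM in the OVA libraries and between 16126.5 and 17743 FPKM in the PBS libraries, so alveolar tissue was present in all 7. The low values corresponded to 17.2 to 20.6 fragments in OVA libraries and 22.4 to 25.5 fragments in PBS libraries for a 1 kilobase transcript at 1 FPKM. Correlations of log values were 0.984 to 0.992 among OVA libraries, 0.989 to 0.992 among PBS libraries and 0.974 to 0.986 between the groups. On the first principal component, with 40.7% of the variance, all OVA libraries lay on the other side of 0 from the PBS libraries, and on the second, with 18.4%, OVA library b stood apart at -34, against 3.91 to 9.09 for the other OVA libraries and -0.52 to 8.71 for the PBS libraries.

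After the long OVA course 185 genes passed, 1.18% of those tested, of which 161 were higher in OVA lungs (1.03%) and 24 were lower (0.153%). By at least 2-fold, 122 genes passed (0.778%). The largest increases included genes known from antibody-secreting cells (Jchain), epithelium (Sprr2a1, Slpi, Slc26a4), mucosal mast cells (Mcpt1, Mcpt2) and macrophages (Mmp12, Arg1, Chil4), and the chemokine Ccl8. Among genes averaging at least 1 FPKM, the largest decreases reported here were those of Fabp1, Cidec, Coro6 and Pon1. The number of genes depended on the libraries in the fit: it was 1022 in a fit of the long OVA and long PBS libraries alone, 588 higher and 434 lower, and 86 without PBS library 3, 96 without PBS library 1, 106 without PBS library 2, 100 without OVA library a, 123 without OVA library d and 153 without OVA library c. Of the 185 genes, 168 were among those 1022.

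**Figure D1:**
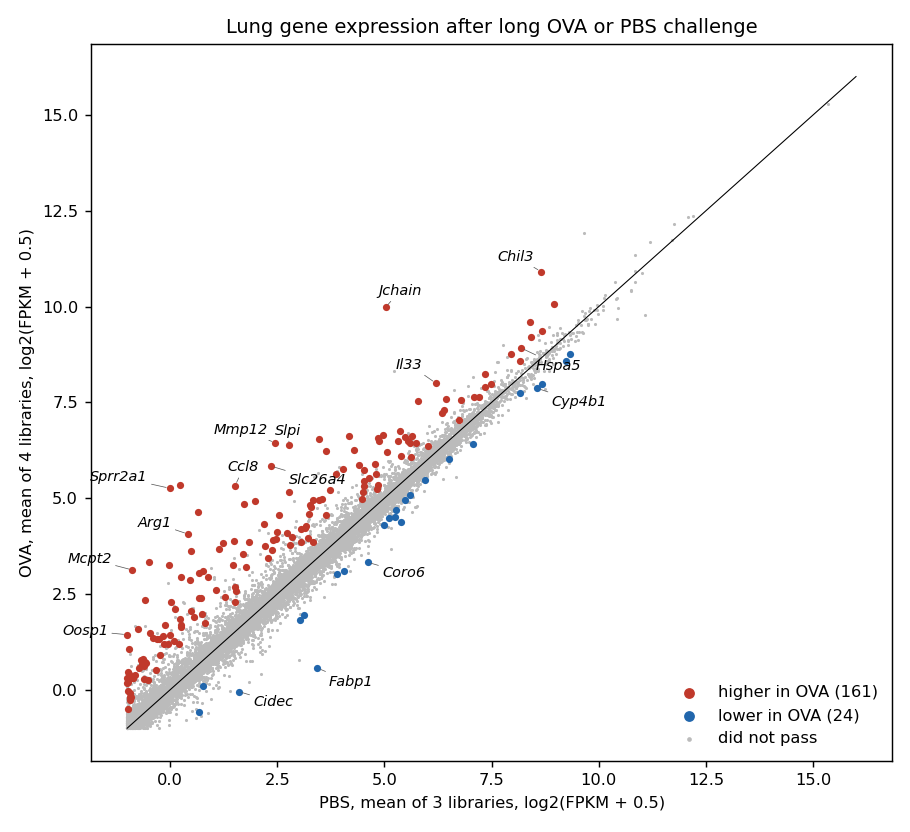
Each point is a gene, with its mean log2(FPKM + 0.5) over the 4 OVA libraries on the vertical axis and over the 3 PBS libraries on the horizontal axis; the line marks equal levels. The 161 genes higher in OVA lungs (red) run along the upper edge from genes listed near 0 to Chil3, and the 24 lower genes (blue) lie below the line, with Fabp1 farthest from it.

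**Figure D2:**
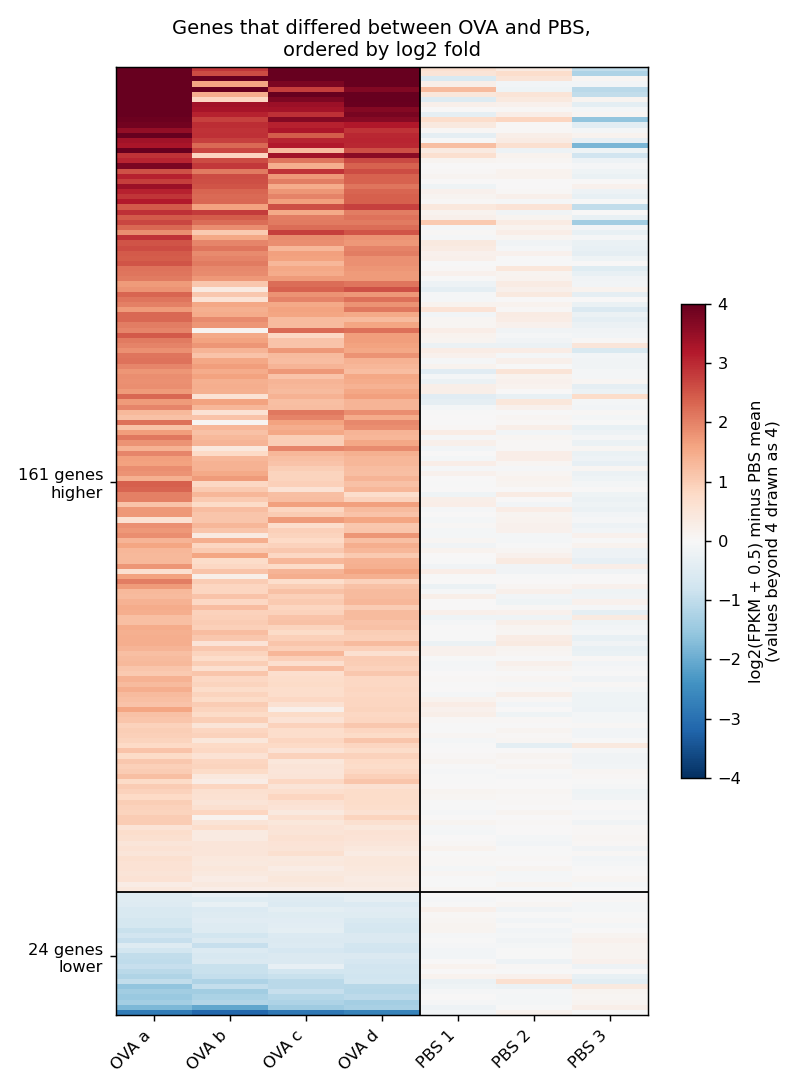
Each row is a gene that passed and each column a library, coloured by log2(FPKM + 0.5) minus the gene's PBS mean, with rows ordered by log2 fold. OVA library a is the reddest column, being the highest of the 4 OVA libraries for 123 of the 161 higher genes, and the pale rows in OVA library b are genes that lay close to the PBS mean there.

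Of the 50 lists examined, that of plasma cells and antibody secretion held the most genes that passed. Not all of its genes are particular to plasma cells. Those that passed include Pigr, an epithelial receptor, and Creld2 and Edem1, genes of endoplasmic reticulum folding and quality control. Of 19 tested genes of plasma cells and antibody secretion, 10 were higher in OVA lungs and none was lower, against 1.03% higher over all genes, and their median log2 fold was 1.12, against -0.02 over all tested genes. Genes of the immunoglobulin chains themselves were not analysed here. In bulk tissue a change in the number of cells of a type and a change in the RNA of each cell cannot be told apart, which holds for every group below. Every count of genes in a list is likewise to be read against the shares over all tested genes, 1.03% higher and 0.153% lower.

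Jchain, the joining chain that links IgA and IgM into polymers (chromosome 5, 88519809 to 88527891, mm10), stood at 1768, 888, 653 and 1008 FPKM in OVA libraries a to d, against 20.7, 46.6 and 34.2 FPKM in PBS libraries 1 to 3. Even the lowest OVA library thus lay far above the highest PBS library, and the log2 fold was 4.95 ± 0.54 (SE; adjusted p = 2.86e-05). Mzb1, a chaperone of antibody assembly, had 55.8, 24.9, 17.2 and 26.5 FPKM in OVA lungs and 2.1, 3.4 and 3.14 FPKM in PBS lungs (log2 fold 3.11 ± 0.60, adjusted p = 0.00886). Derl3, which helps remove misfolded proteins from the endoplasmic reticulum of secretory cells, had 14, 7.37, 4.44 and 7.79 FPKM in OVA lungs, against 1.14, 1.06 and 1.09 FPKM in PBS lungs (2.37 ± 0.39, adjusted p = 0.00247). In all 3 genes OVA library a was the highest and OVA library c the lowest of the OVA libraries, and the groups did not overlap.

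Tnfrsf17, the survival receptor BCMA of long-lived plasma cells, had 1.67, 0.902, 0.832 and 0.937 FPKM in OVA lungs and 0.16, 0.208 and 0.102 FPKM in PBS lungs (1.24 ± 0.18, adjusted p = 0.000662). Xbp1, the transcription factor of secretory differentiation, rose by 0.71 ± 0.12, and Creld2 and Edem1, proteins of endoplasmic reticulum folding and quality control, rose by 1.12 ± 0.14 and 0.95 ± 0.17. Pigr, the epithelial receptor that carries polymeric IgA and IgM bound by the joining chain across the epithelium, had 279, 118, 191 and 185 FPKM in OVA lungs and 53.3, 72 and 43 FPKM in PBS lungs (1.74 ± 0.41, adjusted p = 0.039). Its call ended when any library other than OVA library b was left out, with adjusted p of 0.0706 to 0.243, and that of Mzb1 ended without PBS library 1 (adjusted p = 0.066).

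The regulators that plasma cells share with other lymphocytes did not all follow. Irf4, a transcription factor of plasma cells, activated T cells and macrophages, had 18.2, 9.48, 8.29 and 10.4 FPKM in OVA lungs and 2.84, 3.17 and 2.89 FPKM in PBS lungs without passing (1.74 ± 0.43, adjusted p = 0.0534). Pou2af1, a B lineage coactivator, stood at 11.6 to 29.8 FPKM in OVA lungs and 3.95 to 5.12 FPKM in PBS lungs (1.79 ± 0.72, adjusted p = 0.451). Both passed in the fit of the long OVA and PBS libraries alone, with adjusted p of 0.00978 for Irf4 and 0.0161 for Pou2af1. Prdm1, which encodes the plasma cell factor Blimp-1 but is also active in other lung cells, was at 2.07 to 2.37 FPKM in OVA lungs and 2.65 to 2.98 FPKM in PBS lungs (-0.27 ± 0.23, adjusted p = 1). Of 17 markers of B cells before the plasma cell stage none passed in limma, and 0 had an unadjusted p under 0.05; their summed level was 81.7 to 207.6 FPKM in OVA libraries and 68.2 to 122.6 FPKM in PBS libraries, and Cd79a, a subunit of the B cell antigen receptor, had a log2 fold of 0.47 ± 0.58 (adjusted p = 1). Il21, the helper T cell cytokine that drives B cells towards plasma cells, was listed at 1.35, 0.849, 0.519 and 0.699 FPKM in OVA libraries a to d, and at 0, 0 and 0.04 FPKM in PBS libraries 1 to 3 (adjusted p = 0.000677).

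Genes of protein folding in the endoplasmic reticulum, the compartment in which antibodies and mucins are assembled, rose with them. Of 20 tested, 8 were higher, against 1.03% of all genes, and none was lower (median log2 fold 0.47). In 18 of 20 all OVA libraries lay above all PBS libraries, as they did for 9.95% of all genes. Hspa5, the chaperone BiP that binds unassembled heavy chains, had 554, 448, 465 and 478 FPKM in OVA lungs, against 313, 303 and 256 FPKM in PBS lungs (0.74 ± 0.14, adjusted p = 0.00587). Manf, a secreted folding factor, averaged 158 ± 22.8 FPKM in OVA lungs (SD, n = 4) and 83.3 ± 8.95 FPKM in PBS lungs (SD, n = 3), a rise of 0.92 ± 0.16. The disulphide isomerase Pdia6 rose by 0.48 ± 0.10 and the cochaperone Dnajc3 by 0.42 ± 0.10. Hsp90b1 and Calr, a chaperone and a lectin of the same compartment, were higher in every OVA library than in any PBS library without passing (0.62 ± 0.17 with adjusted p = 0.0774, and 0.31 ± 0.10 with adjusted p = 0.218).

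The size of this group was sensitive to single libraries: 3 genes passed without PBS library 1 and without PBS library 2, 1 without PBS library 3, 2 without OVA library a, 4 without OVA library d and 5 without OVA library b or c, against 17 in the fit of the long OVA and PBS libraries alone. The call of Hspa5 ended without PBS library 3 (adjusted p = 0.0722), that of Pdia6 without any of the PBS libraries or OVA library a (0.0541 to 0.141), and that of Dnajc3 without any of the 7 (0.0739 to 0.239). The medians stayed between 0.42 and 0.50 in those fits.

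Cells raise such genes through the unfolded protein response, in which the factors ATF6 and XBP1 act on the endoplasmic reticulum stress element, CCAAT and CCACG separated by 9 bases. In the 250 bases before the start, searched on both strands, the element was found in 0.17% of the 12376 tested genes with a promoter in the RefSeq table (GRCm38.p6) and in 0.113% of all 32851 promoters there. It was found in 5 of the 125 genes higher in OVA lungs that had a promoter in the table and in none of the 20 lower ones. The 5 stretches are shown 5′ to 3′ on the strand of the gene, with 40 bases on each side and the 5 fixed bases at each end of the element in capitals; where the capitals read CGTGG and ATTGG the element lies on the opposite strand. No STAT6-type site, described with the epithelial genes, overlapped them.
Hspa5: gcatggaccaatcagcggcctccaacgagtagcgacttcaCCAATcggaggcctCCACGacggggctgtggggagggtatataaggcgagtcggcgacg
Pdia6: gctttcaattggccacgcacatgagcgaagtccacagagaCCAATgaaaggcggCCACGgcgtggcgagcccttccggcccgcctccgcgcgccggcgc
Dnajc3: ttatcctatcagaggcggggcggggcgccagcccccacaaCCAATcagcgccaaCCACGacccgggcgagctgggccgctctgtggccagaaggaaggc
Creld2: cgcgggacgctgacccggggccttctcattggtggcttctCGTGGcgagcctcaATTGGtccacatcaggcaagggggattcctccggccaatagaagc
Derl3: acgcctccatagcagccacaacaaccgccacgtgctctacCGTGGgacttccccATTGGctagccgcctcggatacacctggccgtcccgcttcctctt

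The Hspa5 stretch lies at chr2:34771985-34772083, with the element 65 to 47 bases before the start, and the Pdia6 stretch at chr12:17266451-17266549, 98 to 80 bases before it. The Dnajc3 stretch is chr14:118937787-118937885 (105 to 87 bases), the Creld2 stretch chr15:88819480-88819578 (126 to 108 bases) and the Derl3 stretch chr10:75893202-75893300 (156 to 138 bases). All 5 genes lie on the plus strand. Their log2 folds ran from 0.42 for Dnajc3 to 2.37 for Derl3. Of the 21 tested genes with the element, those outside these 5 did not pass, among them Hsp90b1 and Calr. A match to these letters is a description of the sequence and does not show that a factor bound it.

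**Figure D3:**
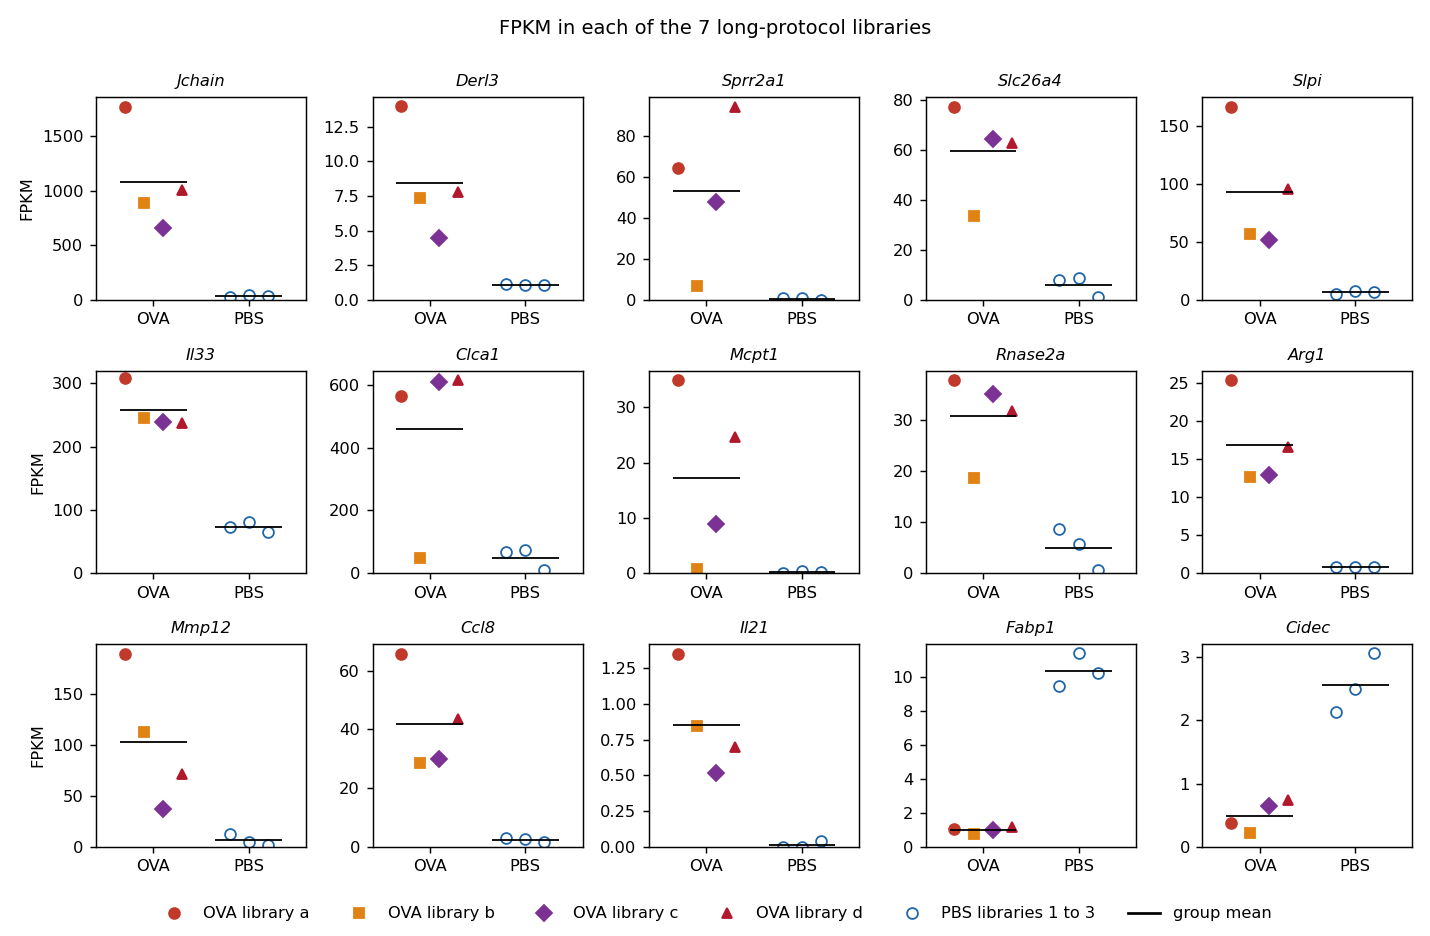
FPKM of 15 genes in each OVA library (filled symbols, 1 shape per library) and each PBS library (open circles), with the mean of each group as a line and each axis starting at 0. Jchain, Slpi and Il33 stand above the PBS libraries in all 4 OVA libraries, whereas Clca1 and Mcpt1 are near the PBS level in OVA library b.

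Genes known from epithelium gave the largest single folds, although the cells that made the RNA were not identified. Sprr2a1 and Sprr2a3, small proline-rich proteins that strengthen the surface of stressed epithelia, rose by 5.27 ± 0.66 and 5.11 ± 0.64 (adjusted p = 0.000158 for each). Sprr2a1 had 64.6, 6.73, 47.7 and 94.4 FPKM in OVA libraries a to d and 1.04, 0.779 and 0 FPKM in PBS libraries 1 to 3. Sprr2a3 had 68, 6.67, 53.4 and 102 FPKM in OVA lungs and 1.18, 1.44 and 0 FPKM in PBS lungs. Library b was the lowest OVA library for both by a wide margin, yet still above every PBS library. They were the only 2 of 14 tested genes of the small proline-rich and squamous epithelium list that passed.

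These values may not belong to single copies. The RefSeq promoter windows of Sprr2a1 and Sprr2a3 on chromosome 3 are equal in all 272 bases they share once shifted by 28 bases. Those of Sprr2a1 and Sprr2a2 are equal in all 300 bases. The windows hold only 50 bases after the start, and the transcripts themselves were not compared. Sprr2a2 is listed at 0 FPKM. Reads of near-identical copies may have been split between the others or dropped, which was not tested. The shared stretch holds a STAT6-type site, TTC and GAA separated by 4 bases, the form of element that the interleukin 4 and 13 factor STAT6 recognises. The stretch is shown with the fixed bases of that site in capitals.
Sprr2a1: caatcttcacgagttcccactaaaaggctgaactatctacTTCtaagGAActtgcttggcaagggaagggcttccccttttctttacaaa
Sprr2a3: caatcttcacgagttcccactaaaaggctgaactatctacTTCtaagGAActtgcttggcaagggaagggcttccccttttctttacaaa

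The Sprr2a1 stretch is chr3:92215591-92215680 and the Sprr2a3 stretch chr3:92285088-92285177, both on the plus strand of GRCm38.p6, with the site 204 to 195 and 176 to 167 bases before the start. Such sites are common: 5.66% of the tested genes with a promoter held at least 1 in these 250 bases, against 14 of 125 genes higher in OVA lungs (11.2%) and 2 of 20 lower ones (10%). The 14 higher genes include both Sprr2a1 and Sprr2a3, whose sites lie in the same stretch. With 20 lower genes that had a promoter, their share is too uncertain to be compared with that of the higher genes.

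Slpi, the leukocyte protease inhibitor of mucous secretions, had 167, 56.9, 51.4 and 95.6 FPKM in OVA lungs and 4.84, 7.85 and 6.79 FPKM in PBS lungs (3.60 ± 0.33, adjusted p = 6.77e-06). Slc26a4, the anion exchanger pendrin of the airway surface, had 77.2, 33.3, 64.1 and 62.6 FPKM in OVA lungs, against 7.76, 8.84 and 1.22 FPKM in PBS lungs (3.49 ± 0.55, adjusted p = 0.00155). The glucose transporter Slc5a1 stood at 21.8, 15.9, 21 and 20.8 FPKM in OVA lungs and 3.96, 4.57 and 3.72 FPKM in PBS lungs (2.15 ± 0.23, adjusted p = 2.86e-05). Chia1, the acidic chitinase of airway epithelium, and Lcn2, an iron-sequestering antimicrobial protein, rose by 1.61 ± 0.20 and 1.67 ± 0.26. All 5 genes kept their call when any library was left out.

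Il33, the alarmin held in the nuclei of alveolar type 2 and other barrier cells (chromosome 19, 29925114 to 29960718, mm10), had 308, 246, 238 and 238 FPKM in OVA lungs, against 72.8, 81.1 and 65.7 FPKM in PBS lungs (1.80 ± 0.17, adjusted p = 7.18e-06). OVA library b was no lower than libraries c and d here. With Slpi and Lcn2 it made 3 of the 18 tested alveolar type 2 cell markers higher, against 1.03% of all genes. None was lower, and the median was 0.25. Ccl11, the eosinophil attractant eotaxin, had 114, 74.8, 92.6 and 91.2 FPKM in OVA lungs and 10.7, 13.7 and 8.38 FPKM in PBS lungs (3.05 ± 0.56, adjusted p = 0.00569, and 0.0509 without PBS library 3).

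Goblet cell and mucus genes were higher in 3 of the 4 OVA libraries. Of 24 tested, 1 passed, Slc26a4, and none was lower, with a median of 0.99. Their summed level was 1456.9, 288.2, 1495.6 and 1403 FPKM in OVA libraries a to d and 321.2, 436.3 and 319.2 FPKM in PBS libraries 1 to 3, so that OVA library b was below the lowest PBS library. Clca1, a secreted protein of goblet cells, had 565, 48.9, 609 and 615 FPKM in OVA lungs, against 67.4, 73.3 and 9.83 FPKM in PBS lungs (3.10 ± 1.40, adjusted p = 0.584). Muc5b, a gel-forming mucin, had 368, 70.4, 388 and 340 FPKM in OVA lungs and 107, 129 and 134 FPKM in PBS lungs (0.97 ± 0.81, adjusted p = 1). Muc5ac, the mucin of allergen-exposed airways, stood at 7.96, 0.242, 2.73 and 4.08 FPKM in OVA lungs and 0.917, 1.55 and 0.418 FPKM in PBS lungs (1.16 ± 0.63, adjusted p = 0.818).

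Without OVA library b, 6 of the 24 mucus genes passed, all higher, and the median was 1.16. Itln1, the goblet cell lectin intelectin, passed then (adjusted p = 0.00403, against 0.0577 with all libraries), while Clca1 (0.322), Muc5b (0.763) and Muc5ac (0.127) did not. The other markers of large airways were also low in that library: ciliated cell markers summed to 514.3, 370.9, 542.9 and 538.6 FPKM in OVA libraries a to d and 455.5, 517.5 and 526.9 FPKM in PBS libraries 1 to 3, and club cell markers to 47245.1, 37734.2, 50976.5 and 54527 FPKM and 46695.5, 50038 and 51910.4 FPKM. Foxj1, the regulator of ciliated cells, had 16.8, 10, 18.9 and 19.1 FPKM in OVA lungs and 11.7, 12.7 and 13.9 FPKM in PBS lungs. None of 19 ciliated cell markers passed in limma, and 1 had an unadjusted p under 0.05. The part of the airway content of a library in these results was not tested.

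Mucosal mast cell proteases were among the largest folds, with the same library apart. Mcpt1 had 34.9, 0.763, 8.89 and 24.6 FPKM in OVA libraries a to d, against 0, 0.441 and 0.266 FPKM in PBS libraries 1 to 3 (3.83 ± 0.71, adjusted p = 0.00625). Mcpt2 had 31.1, 1.11, 6.92 and 14.9 FPKM in OVA lungs and 0.147, 0 and 0 FPKM in PBS lungs (4.00 ± 0.64, adjusted p = 0.00186). The call of Mcpt1 ended without PBS library 1 (0.0551) and in the fit of the long OVA and PBS libraries alone (0.073), and without OVA library b the log2 fold was 4.83 ± 0.42. Both encode chymases that mucosal mast cells make in type 2 inflammation.

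Of 17 tested mast cell and basophil genes, these 2 were higher, against 1.03% of all genes, and none was lower, with a median of 0.39. Without OVA library b 4 passed, and without PBS library 1 the count was 1. Tpsb2, a tryptase, had 4.04, 0.054, 0.947 and 2.11 FPKM in OVA lungs and 0.4, 0.295 and 0.123 FPKM in PBS lungs (adjusted p = 0.379, and 0.00943 without OVA library b). Cpa3, the mast cell carboxypeptidase, had 4.91, 0.072, 0.901 and 2.43 FPKM in OVA lungs and 0.839, 1.08 and 0.838 FPKM in PBS lungs (0.42 ± 0.49, adjusted p = 1). Library a was the highest for both genes and library b was below all PBS libraries.

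Of 15 tested eosinophil genes, 2 were higher, against 1.03% of all genes, and none was lower, with a median of -0.08. Epx, the eosinophil peroxidase that defines the cell, was at 0.141, 0.203, 0.031 and 0.113 FPKM in OVA lungs and 0, 0.225 and 0 FPKM in PBS lungs (0.13 ± 0.20, adjusted p = 1), and Ccr3, the eotaxin receptor, at 0.477 to 1.06 FPKM in OVA lungs and 0.839 to 1.57 FPKM in PBS lungs (-0.53 ± 0.38, adjusted p = 1). The 2 genes that passed are also made by other cells. Rnase2a, an eosinophil-associated ribonuclease that macrophages can also make, had 37.9, 18.7, 35.3 and 31.9 FPKM in OVA lungs, against 8.72, 5.66 and 0.612 FPKM in PBS lungs (2.93 ± 0.47, adjusted p = 0.00183). Il5ra, the interleukin 5 receptor chain that mouse B cells carry as well, had 3.27, 1.97, 1.5 and 1.7 FPKM in OVA lungs and 0.321, 0.461 and 0.259 FPKM in PBS lungs (1.59 ± 0.27, adjusted p = 0.00267).

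Of 20 tested genes of alternatively activated macrophages, 7 were higher, against 1.03% of all genes, and none was lower, at a median of 1.11. In 14 of 20 the OVA libraries lay above all PBS libraries, as they did for 9.95% of all genes. The count of 7 was 4 without PBS library 1, PBS library 2 or OVA library a, and 12 in the fit of the long OVA and PBS libraries alone. Arg1, the arginase that competes for the substrate of nitric oxide synthase (chromosome 10, 24915221 to 24927484, mm10), had 25.4, 12.7, 12.9 and 16.6 FPKM in OVA lungs, against 0.862, 0.877 and 0.776 FPKM in PBS lungs (3.64 ± 0.40, adjusted p = 2.86e-05). Chil3, the chitinase-like protein Ym1, had 2540, 1906, 1697 and 1682 FPKM in OVA lungs and 839, 509 and 152 FPKM in PBS lungs (2.26 ± 0.36, adjusted p = 0.00165). The PBS libraries differed among themselves for this gene far more than for Arg1.

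Mmp12, the macrophage elastase, had 190, 113, 37 and 71.6 FPKM in OVA lungs and 12.6, 4.37 and 2.07 FPKM in PBS lungs (4.00 ± 0.51, adjusted p = 0.00019). Cd209e, a C-type lectin, rose by 2.34 ± 0.35, and Gpnmb, a glycoprotein of lipid-laden macrophages, stood at 31.3, 16.2, 6.02 and 11.6 FPKM in OVA lungs and 1.89, 1.91 and 1.78 FPKM in PBS lungs (2.60 ± 0.55, adjusted p = 0.0197). The call of Gpnmb ended without OVA library a or any PBS library (0.0805 to 0.106). Chil4, the chitinase-like protein Ym2 that airway epithelium also makes, had 46.7, 3.74, 44.1 and 42.2 FPKM in OVA lungs and 1.66, 1.74 and 0.288 FPKM in PBS lungs (3.99 ± 0.87, adjusted p = 0.0246), and its call ended when any library other than OVA library b was left out (0.0671 to 0.194). Retnla, the resistin-like protein of the same programme, had 4965, 2193, 4816 and 4294 FPKM in OVA lungs and 1430, 1647 and 224 FPKM in PBS lungs, which did not pass (2.26 ± 0.67, adjusted p = 0.144). PBS library 3 was the lowest library for Chil3, Chil4, Cd209e, Mmp12 and Retnla.

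Monocyte and interstitial macrophage markers gave 8 higher genes of 20, against 1.03% of all genes, and none lower, at a median of 0.91. The count was 3 without PBS library 3 and 5 without PBS library 2, and 14 in the fit of the long OVA and PBS libraries alone. Trem2, a lipid receptor of tissue macrophages, had 21.4, 15.1, 8.51 and 13.7 FPKM in OVA lungs, against 4.01, 2.93 and 2.43 FPKM in PBS lungs (2.02 ± 0.29, adjusted p = 0.000677). Ly6c2, a surface marker of inflammatory monocytes that plasma cells also carry, had 49.9, 28.5, 22.7 and 29.2 FPKM in OVA lungs and 10.8, 12 and 10.9 FPKM in PBS lungs (1.43 ± 0.24, adjusted p = 0.00276). Cd68, a lysosomal protein of macrophages, rose by 1.11 ± 0.20, and C1qb, a chain of complement C1q, by 1.20 ± 0.22 (adjusted p = 0.00539, and 0.0553 without PBS library 3). Itgax, the integrin of dendritic cells and alveolar macrophages, was the only 1 of 18 dendritic cell markers that passed, at 126, 109, 90.1 and 104 FPKM in OVA lungs and 49.2, 42.9 and 32.4 FPKM in PBS lungs (1.37 ± 0.20). Ccr2, the receptor by which monocytes leave the blood, did not pass, at 11.8 to 15.4 FPKM in OVA lungs and 11 to 14.8 FPKM in PBS lungs (0.11 ± 0.16, adjusted p = 1).

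Several proteases, complement genes and enzymes were also higher. Ctsk, the collagen-degrading cathepsin K, had 151, 108, 59.6 and 91.7 FPKM in OVA lungs and 18.9, 19.4 and 14.6 FPKM in PBS lungs (2.44 ± 0.35, adjusted p = 0.000547). Mmp19, a metalloproteinase, rose by 1.96 ± 0.24, and with Mmp12, Serpina3g (1.71 ± 0.28) and a related serpin made 4 of 25 tested proteases and inhibitors higher, against 1.03% of all genes, and none lower. C3ar1, the receptor for the complement fragment C3a, rose by 1.62 ± 0.27. Of 23 complement and acute phase genes 5 were higher, against 1.03% of all genes, and none was lower, a count of 2 without PBS library 3. Ch25h, which makes 25-hydroxycholesterol, rose by 2.38 ± 0.31, to 14.5 ± 3.87 FPKM in OVA lungs (SD, n = 4), against 2.35 ± 0.481 FPKM in PBS lungs (SD, n = 3). Cybb, the catalytic subunit of the phagocyte NADPH oxidase, rose by 0.83 ± 0.11. In Mmp12, Gpnmb, Trem2 and Ctsk library a was the highest and library c the lowest of the OVA libraries, and library b was not low.

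Chemokines of the CC family had a median log2 fold of 1.20, the largest of the 50 lists examined. Of 18 tested, 6 were higher, against 1.03% of all genes, and none was lower. The 6 were Ccl1, Ccl6, Ccl7, Ccl8, Ccl9 and Ccl11, and without PBS library 3 the count was 4. Ccl8, which attracts type 2 helper T cells in mouse through its receptor, had 65.8, 28.6, 29.9 and 43.5 FPKM in OVA lungs and 2.83, 2.74 and 1.68 FPKM in PBS lungs (3.81 ± 0.37, adjusted p = 7.69e-06). Ccl9, a chemokine known in rodents, had 102, 75.3, 54.2 and 76.4 FPKM in OVA lungs, against 13, 12.7 and 10.4 FPKM in PBS lungs (2.60 ± 0.25, adjusted p = 7.18e-06). Ccl7, a ligand of monocyte receptors, rose by 2.54 ± 0.45, and Ccl6 by 1.21 ± 0.24 (adjusted p = 0.0105), whose call ended without PBS library 2 (0.0675) or 3 (0.0658). Ccl24, another eotaxin, did not pass (1.28 ± 0.36, adjusted p = 0.104), although all OVA libraries lay above all PBS libraries.

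The CXC family gave 3 higher genes of 15, against 1.03% of all genes, and none lower. Without PBS library 1 or 2 the count was 1, without PBS library 3 it was 0, and without OVA library a or c it was 2. Cxcl10, an interferon-induced attractant of T cells, had 0.538, 0.971, 1.72 and 1.52 FPKM in OVA lungs and 0.147, 0.251 and 0.154 FPKM in PBS lungs (1.24 ± 0.24, adjusted p = 0.0101, and 0.066 and 0.0719 without PBS libraries 1 and 3). OVA library a, the highest for most genes that rose, was the lowest of the OVA libraries for Cxcl10. It was likewise the lowest OVA library for Ccl1, a ligand of type 2 helper T cells, which had 0.352, 0.722, 0.903 and 1.18 FPKM in OVA lungs and 0.167, 0 and 0 FPKM in PBS lungs (adjusted p = 0.00253). Of 24 interferon-stimulated genes, 1 passed, Cxcl10 itself.

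None of 26 T cell and costimulation genes and none of 15 cytotoxic and natural killer genes passed in limma. At an unadjusted p under 0.05 there were 4 and 0 genes, all higher. Tnfrsf9, a costimulation receptor outside these lists, did pass. It lay 2.455, 1.887, 1.638 and 2.057 above its PBS mean on the log2 scale in OVA libraries a to d. Foxp3, the regulator of regulatory T cells, was at 0.425 to 0.63 FPKM in OVA lungs and 0.389 to 0.458 FPKM in PBS lungs. Of the 9 cytokine genes of type 2 and other helper T cells that could be tested, 2 were higher, Il21 and Il10, against 1.03% of all genes. Il10, an inhibitory cytokine of T cells, B cells and macrophages, had 1.35, 0.47, 0.434 and 0.957 FPKM in OVA lungs and 0, 0 and 0.159 FPKM in PBS lungs (adjusted p = 0.0101, and 0.0749 and 0.0724 without PBS libraries 1 and 2). The classical type 2 cytokines were near the lower end of what could be measured: Il13 was at 0.537, 0.051, 0.483 and 0.468 FPKM in OVA lungs and 0.04, 0.122 and 0 FPKM in PBS lungs (adjusted p = 0.321), Il4 at 0 to 0.415 FPKM and 0 to 0.055 FPKM, and Il5 at 0 to 0.663 FPKM and 0.178 to 0.405 FPKM (adjusted p = 1 for both). OVA library b was the lowest for Il13, Il4 and Il5. Ptgdr, a receptor of prostaglandin D2 carried by lymphocytes and innate lymphoid cells, had 3.3, 1.01, 1.42 and 1.29 FPKM in OVA lungs and 0, 0.049 and 0 FPKM in PBS lungs (2.03 ± 0.21, adjusted p = 2.5e-05).

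**Figure D4:**
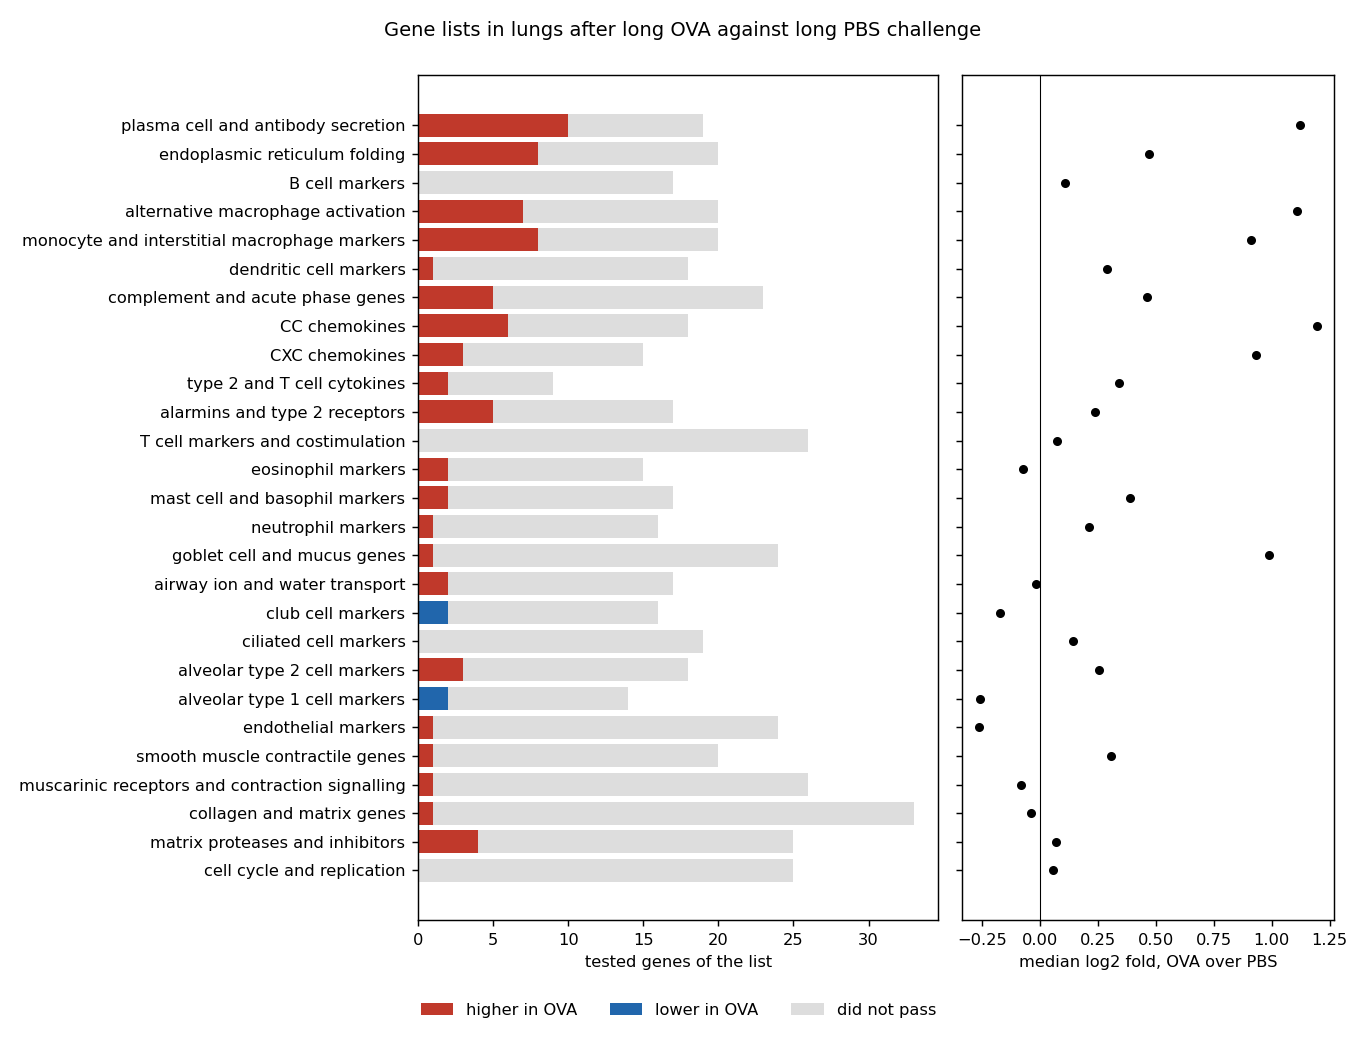
For each of 27 gene lists, the bars at left give the number of tested genes that were higher in OVA lungs (red), lower (blue) or did not pass (grey), and the points at right give the median log2 fold, OVA over PBS. The plasma cell list has the most genes that passed, 10 of 19, while the goblet list combines a median of 0.99 with 1 gene that passed.

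Genes of airway remodelling came from the lists of smooth muscle, contraction signalling, matrix and TGF-beta. Of 20 smooth muscle contractile genes 1 was higher, against 1.03% of all genes, and none was lower, at a median of 0.31. All OVA libraries lay above all PBS libraries for 11 of the 20, as they did for 9.95% of all genes. Tagln, an actin-binding protein of smooth muscle, had 236, 263, 238 and 223 FPKM in OVA lungs and 157, 164 and 166 FPKM in PBS lungs (0.56 ± 0.13, adjusted p = 0.0399), but its call ended without any 1 of the 7 libraries (0.0652 to 0.188). Acta2, smooth muscle actin, had 146, 166, 161 and 159 FPKM in OVA lungs, against 98.2, 125 and 119 FPKM in PBS lungs, and did not pass (0.47 ± 0.13, adjusted p = 0.104). In the fit of the long OVA and PBS libraries alone 8 of the 20 genes passed, all higher, with Acta2 among them (adjusted p = 0.0241).

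None of 26 tested genes of muscarinic receptors and contraction signalling was lower, and none passed without PBS library 2, PBS library 3 or OVA library a. With all libraries 1 was higher, against 1.03% of all genes. It was Rgs5, a regulator of G protein signalling in pericytes and smooth muscle, at 32.9, 21.9, 20.7 and 19.1 FPKM in OVA lungs and 7.11, 4.8 and 4.38 FPKM in PBS lungs (2.02 ± 0.41, adjusted p = 0.0142; 0.0805, 0.111 and 0.0728 without PBS library 2, PBS library 3 and OVA library a). The receptors Chrm1 and Chrm3 were at 0.193 to 0.541 FPKM and 0.663 to 1.54 FPKM in OVA lungs, against 0.559 to 1.13 FPKM and 0.798 to 0.959 FPKM in PBS lungs, and did not pass (adjusted p = 0.712 and 1).

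Of 33 collagen and matrix genes 1 was higher, Thbs1, and none was lower. A count of 1 is too small to be set apart from the 1.03% higher over all genes. No gene of the list passed without PBS library 1 or PBS library 3. Outside that list the collagen chain genes Col24a1 and Col6a5 were also higher. The log2 fold of Col24a1 was 2.32, and Col6a5 lay 1.95, 0.789, 1.319 and 1.433 above its PBS mean on the log2 scale in OVA libraries a to d. Col1a1, the main fibrillar collagen chain, was at 13.8 to 26 FPKM in OVA lungs and 16.4 to 29.6 FPKM in PBS lungs (-0.34 ± 0.34, adjusted p = 1). Fn1, fibronectin, had 354, 364, 422 and 360 FPKM in OVA lungs and 195, 222 and 190 FPKM in PBS lungs, groups that did not overlap, without passing (0.89 ± 0.28, adjusted p = 0.192), and it passed in the fit of the long OVA and PBS libraries alone (0.00382). Timp1, an inhibitor of metalloproteinases, was also higher in every OVA library than in any PBS library without passing (1.23 ± 0.38, adjusted p = 0.182). In the TGF-beta family list 2 of 20 genes were higher, against 1.03% of all genes, though none without PBS library 1, PBS library 2 or OVA library a. They included Inhba, the activin A subunit that macrophages also make, at 14.2, 7.42, 3.37 and 5.61 FPKM in OVA lungs and 0.717, 0.904 and 1.05 FPKM in PBS lungs (2.39 ± 0.47, adjusted p = 0.0105). The call of Inhba ended without PBS library 1 (0.0708), PBS library 2 (0.0531) or OVA library a (0.053).

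Of the 24 genes lower in OVA lungs, 7 were lower by at least 2-fold. Fabp1, a carrier of fatty acids best known from liver and intestine (chromosome 6, 71199827 to 71205023, mm10), had 1.06, 0.724, 1 and 1.19 FPKM in OVA lungs, against 9.47, 11.4 and 10.2 FPKM in PBS lungs (-2.87 ± 0.42, adjusted p = 0.00068). The lowest PBS library was far above the highest OVA library. Fabp1 was the only 1 of 7 tested liver and gut secretory markers that passed. Cidec, a lipid droplet protein of fat and liver, had 0.372, 0.222, 0.638 and 0.738 FPKM in OVA lungs and 2.12, 2.49 and 3.06 FPKM in PBS lungs (-1.65 ± 0.28, adjusted p = 0.00312). It was the only 1 of 16 fat markers that passed. The fat list summed to 33.4 to 87 FPKM in OVA libraries and 33.6 to 91.5 FPKM in PBS libraries. Fabp1 and Cidec were also in the list of alveolar macrophages and lipid handling. They were the 2 lower genes of 20 tested there, against 0.153% of all genes, and none was higher, at a median of 0.06. Both counts stayed the same when any 1 library was left out. In the fit of the long OVA and PBS libraries alone, 5 genes of that list were higher and 3 lower.

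Coro6, a coronin of muscle and nerve that regulates actin, had 9.06, 10.4, 9.92 and 8.9 FPKM in OVA lungs, against 23.3, 22.6 and 25.8 FPKM in PBS lungs (-1.28 ± 0.23, adjusted p = 0.00539). The cardiac muscle markers, of which it was the only 1 of 19 that passed, summed to 69.2 to 225.9 FPKM in OVA libraries and to 92.6, 124.9 and 384 FPKM in PBS libraries 1 to 3, so that these markers were highest in PBS library 3, while Coro6 ranged from 22.6 to 25.8 FPKM among the PBS libraries. Pon1, a lactonase best known from serum lipoproteins, fell by 1.21 ± 0.23 (adjusted p = 0.00623, and 0.0553 without PBS library 3). Igfbp3, a carrier of insulin-like growth factors, had 6.65, 8.14, 8.41 and 9.03 FPKM in OVA lungs and 17.7, 18.2 and 13 FPKM in PBS lungs (-0.97 ± 0.16, adjusted p = 0.00247).

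Club cell markers gave 2 lower genes of 16 tested, against 0.153% of all genes, and no higher one, but none passed without PBS library 1, PBS library 3 or OVA library a, and 1 without PBS library 2 or OVA library d. Cyp4b1, a cytochrome P450 abundant in lung, had 190, 240, 254 and 255 FPKM in OVA lungs and 353, 376 and 404 FPKM in PBS lungs (-0.69 ± 0.15, adjusted p = 0.0267). Its call ended without OVA library a or any PBS library (0.0709 to 0.175).

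Alveolar type 1 cells, the thin cells of gas exchange, gave 2 lower genes of 14 tested, against 0.153% of all genes, and no higher one. The 2 were Cyp4b1, which is also in the club cell list, and the caveolar protein Cav1. The median of the list was -0.26. None passed without PBS library 1, PBS library 3 or OVA library a, and 1 without PBS library 2 or OVA library d. For 9 of the 14 all OVA libraries lay below all PBS libraries, as they did for 13.2% of all genes. The markers summed to 4404.4, 5570.8, 5163.8 and 4786.1 FPKM in OVA libraries a to d and 6156, 6148.9 and 6151.7 FPKM in PBS libraries 1 to 3. Cav1 had 395, 470, 466 and 419 FPKM in OVA lungs, against 678, 592 and 655 FPKM in PBS lungs (-0.55 ± 0.12, adjusted p = 0.0241). Rtkn2, a marker of the same cells, was at 102 to 118 FPKM in OVA lungs and 135 to 145 FPKM in PBS lungs without passing (-0.37 ± 0.14, adjusted p = 0.36). The call of Cav1 ended without PBS library 1 or 3 or OVA library a or d (0.078 to 0.156) and with median-of-ratios scaling (0.0912), as did that of Cyp4b1 with that scaling (0.0742).

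Of 24 endothelial markers 1 was higher, against 1.03% of all genes, and none was lower, and none passed when any 1 of the 7 libraries was left out. All OVA libraries lay below all PBS libraries for 11 of them, against 13.2% of all genes, and above for 4, against 9.95%. The list summed to 2467.3 to 2812.9 FPKM in OVA libraries and 3035.1 to 3137.1 FPKM in PBS libraries. Clec14a, an endothelial lectin outside that list, fell by 0.68 ± 0.15, with 243, 280, 253 and 241 FPKM in OVA lungs and 380, 406 and 437 FPKM in PBS lungs (adjusted p = 0.0214); its call ended when any library other than OVA library b was left out (0.0518 to 0.152). Kdr, the main VEGF receptor, was lower in every OVA library than in any PBS library without passing (-0.51 ± 0.23, adjusted p = 0.578), and passed in the fit of the long OVA and PBS libraries alone (0.0245). FPKM is relative to the total of a library, so a lower value can stand beside an unchanged amount of RNA when other genes rise.

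The OVA libraries differed in how far they moved. Over the 161 higher genes the median difference from the PBS mean was 1.718, 1.097, 1.172 and 1.344 on the log2 scale in libraries a to d. Library a was the highest in 123 of them, library c the lowest in 76 and library b the lowest in 67. Over the 24 lower genes the medians were -0.927, -0.693, -0.567 and -0.707. Among the genes that passed, library a thus moved farthest in both directions. The libraries nearest to PBS were b and c for the higher genes and c for the lower ones. These genes were chosen in the same libraries, and a gene for which 1 OVA library stayed near PBS passed less easily. On the first principal component, over all tested genes, library b lay nearest to PBS, at -4.92, against -14.42 for c, -19.41 for d and -30.45 for a.

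The long course was set against the short one, in which OVA or PBS was inhaled on 3 consecutive days by mice of the same age at first challenge, with 4 OVA and 3 PBS libraries of its own. Of the 185 genes, 40 had an OVA effect that differed between the courses, 6 with a positive and 34 with a negative difference, and over all tested genes 1.88% had a difference that passed: 0.459% had a positive and 1.42% a negative one. The difference is the log2 fold of the long course minus that of the short course, tested in the same model. For OVA against PBS after the long course alone, genes were also divided by transcript length into 5 classes. In the shortest class 55 of 3096 were higher in OVA lungs, and in the longest 17 of 3096. Spearman's rank correlation of the long-course fold and length was -0.11 across 15477 genes. It is a description, since genes within a library are not replicates.

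Of the 19 plasma cell genes, 1 had a positive difference that passed and none a negative one. It was Jchain, which had a log2 fold of 4.95 after the long and 1.20 after the short course (difference 3.75 ± 0.76, adjusted p = 0.0116), and its mean was 1079 ± 482 FPKM in long OVA lungs, against 64.7 ± 40.2 FPKM in short OVA lungs (SD, n = 4 each). Tnfrsf17 leaned the same way without passing (0.92 ± 0.25, adjusted p = 0.0721), and Derl3 (0.61 ± 0.56) and Mzb1 (1.19 ± 0.85) did not pass (adjusted p = 0.659 and 0.545). Slpi, with 3.60 after the long and 1.89 after the short course, did not pass (1.71 ± 0.46, adjusted p = 0.067). Itih4, an acute phase inhibitor chain, had 43.4, 40.6, 30.3 and 33.5 FPKM in long OVA lungs, against 9.99, 17.7 and 12 FPKM in long PBS lungs; its log2 fold was 1.47 after the long and 0.06 after the short course (1.41 ± 0.28, adjusted p = 0.00998). Ly6c2 (1.34 ± 0.34, adjusted p = 0.0486) and Cybb (0.77 ± 0.16, adjusted p = 0.0144) also had a larger effect after the long course. The difference of Ly6c2 passed in 1 of the 14 fits that each left out a library of these 4 groups (adjusted p up to 0.124), whereas those of Jchain, Itih4 and Cybb passed in all 14. Oosp1, named for its secretion by oocytes, was listed at 2.89, 2.52, 1.57 and 2.06 FPKM in long OVA lungs, at 0 in all long PBS lungs and at a mean of 0.122 FPKM in short OVA lungs (difference adjusted p = 8.27e-05).

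Several macrophage and chemokine genes had negative differences. Arg1 (-3.35 ± 0.56), Cd209e (-4.67 ± 0.49), Ccl8 (-3.71 ± 0.52), Ccl7 (-4.45 ± 0.64) and Rnase2a (-5.89 ± 0.67) had smaller effects after the long course, and Arg1 averaged 16.9 FPKM in long OVA lungs, against 175 FPKM in short OVA lungs. Chia1 differed by -2.60 ± 0.28 and Slc26a4 by -3.44 ± 0.78, a difference that passed in 7 of the 14 fits without a library (adjusted p up to 0.101). Il33 (-0.91 ± 0.24, adjusted p = 0.0639) and Mmp12 (-0.97 ± 0.72, adjusted p = 0.571) did not pass, with log2 folds of 1.80 and 4.00 after the long and 2.71 and 4.96 after the short course. Mcpt1 (0.59 ± 1.01) and Mcpt2 (0.54 ± 0.91) did not pass either, and their intervals are too wide to show that the effects were alike. Fabp1 had log2 folds of -2.87 after the long and -2.72 after the short course (difference -0.15 ± 0.59, adjusted p = 0.946).

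**Figure D5:**
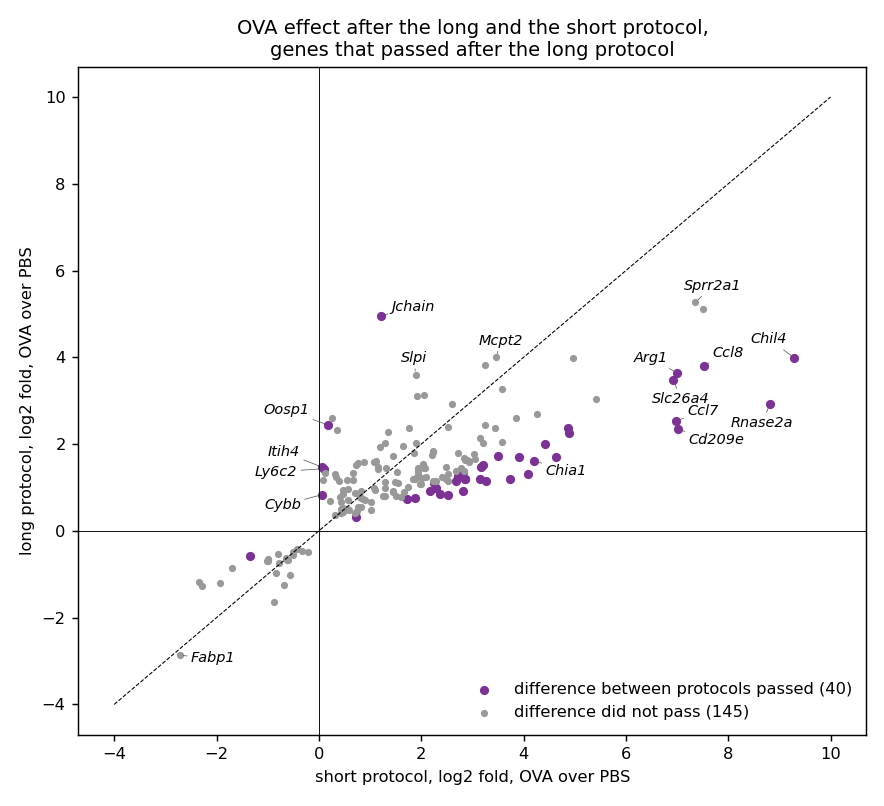
Each point is 1 of the 185 genes that passed after the long course, with its log2 fold after the long course on the vertical axis and after the short course on the horizontal axis; the dashed line marks equal folds. Purple points are the 40 genes whose difference passed; Jchain, Oosp1, Itih4, Ly6c2 and Cybb lie above the line and most others below it.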

How the data were processed

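RNA from mouse lung was extracted with RNeasy columns and DNase I and sequenced from TruSeq Stranded Total RNA libraries, per the labels' protocols. The authors deposited FPKM values per gene and per transcript; Trim Galore, STAR, DESeq2 and mm10 are named, without versions, in the submitters' processing notes, and the program that made the FPKM values is not given in the sources used here. Immunoglobulin constant genes were not analysed here. Of 20938 genes listed, the 15682 that reached 0.1 FPKM in 3 or more of the 22 libraries were tested as log2(FPKM + 0.5) in limma 3.58.1 (R 4.3.3), with 1 coefficient per group over all 22 libraries, a mean-variance trend and Benjamini-Hochberg adjustment within each contrast. The contrasts were OVA against PBS after the long course, the same after the short course, and their difference. Folds are log2 differences with standard errors, OVA minus PBS. The code was tested on simulated data.

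No 2 libraries held identical values, and each was counted as 1 sample; p-values measure the spread between these libraries. The depth behind a low value was read from the steps between the smallest transcript FPKM values, and it limits genes near 0. Genes named were the 12 largest increases and 12 largest decreases with a mean FPKM of at least 1, up to 5 genes of smallest p and the most abundant gene of each of 50 lists, a list of key genes, and 10 genes of smallest p in no list. Some genes that the rule names are not reported here. Mzb1, Edem1, Irf4, Pou2af1, Prdm1, Dnajc3, Calr, Cpa3, Tpsb2, Ccr2, Ctsk, Cybb and Kdr lie outside that rule and were chosen after their values were seen. The same holds for Col24a1, Col6a5 and Tnfrsf9. The samples, lists and tests were chosen with earlier results of these data known. Promoters are RefSeq windows from 250 bases before the start, searched with Python 3.11.15. Alternatives covered the pseudocount, filter, scaling, weights, variance model, libraries in the fit, transcript sums and leaving out each library; leaving out libraries for single differences between courses was added after seeing the data.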

Additional observations from a re-analysis of the deposited data

Results flagged for a closer look

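Among the 4 OVA libraries, 10 of the 99 genes checked had 1 library far from the others on the log2 scale. For a single gene chance alone gives about 1 in 20. The genes share the same 4 libraries and are not independent, so the count of 10 does not show an excess over chance. OVA library b was the low one for Clca1 (48.9 FPKM), Muc5b (70.4 FPKM), Chil4 (3.74 FPKM), Slc5a1 (15.9 FPKM) and Il13 (0.051 FPKM). OVA library a was the high one for Il33 (308 FPKM), Dnajc3 (406 FPKM), Edem1 (121 FPKM) and Tnfrsf17 (1.67 FPKM), and OVA library c for Fn1 (422 FPKM). The low genes of library b include goblet cell products, and the summed goblet, ciliated and club cell markers were also lowest in that library among the OVA libraries; their part in these values was not tested.

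The OVA effect differed between the courses for 32 of these genes, given as the log2 fold of the long minus that of the short course, by the interaction term in limma. It was larger after the long course, or less negative, for Jchain (3.75), Hspa1b (3.09), Oosp1 (2.26), Esm1 (1.5), Itih4 (1.41), Ly6c2 (1.34) and Cybb (0.77). Chemokines and their receptors had negative differences, Ccl24 of -4.52, Ccl7 of -4.45, Ccl8 of -3.71, Ccl1 of -1.68, Ccr3 of -3.79 and Ccr2 of -1.78. So had cytokines, Il5 of -3.67, Il13 of -3.39, Il4 of -2.63, Il10 of -1.96 and Il21 of -1.45. Macrophage and eosinophil genes gave Retnla at -6.91, Rnase2a at -5.89, Chil4 at -5.3, Cd209e at -4.67, Arg1 at -3.35, Chil3 at -2.62, Ch25h at -2.48, Epx at -2.08 and C1qb at -1.66. The others were Timp1 at -3.77, Slc26a4 at -3.44, Chia1 at -2.6, Serpina3g at -2.2 and Acta2 at -0.92. Of these 32, the differences of Acta2, Chil4, Esm1, Hspa1b, Ly6c2 and Slc26a4 did not pass in every fit without 1 library: they passed in 13, 7, 12, 3, 1 and 7 of 14 fits.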

How the results depend on the processing

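The 185 genes became 2047 with array weights, 1022 in a fit of the long OVA and PBS libraries alone, 975 in a fit of the 4 OVA and PBS groups, 519 without the 3 methacholine libraries with most genes at 0, and 122 with a fold of at least 2; leaving out a library gave 86 to 197. The 295 genes whose effect differed between courses became 4893 with array weights, 4513 in the fit of the 4 groups, 1030 without those 3 libraries and 193 with a pseudocount of 0.1; leaving out a library gave 132 to 311. Other pseudocounts, filters, scalings, robust variances and transcript sums stayed within 1.5 times of both counts. With a pseudocount of 0.1 the calls of Ccl11 (adjusted p = 0.0973), Ccl7 (0.144), Chil4 (0.0937), Derl3 (0.0603), Dnajc3 (0.0503) and Inhba (0.0573) ended, with median-of-ratios scaling that of Tagln (0.0879), with no filter that of Pigr (0.0563) and with quantile normalization that of Dnajc3 (0.056). Cpa3 changed sign without OVA library a, its log2 fold lying between -0.0894 and 0.9905 over the fits without a library; Il5 changed sign with a pseudocount of 0.1 (-0.0575) and lay between -0.1103 and 0.2958 over those fits, with adjusted p = 1 where the sign turned. The cause of these changes was not tested. Of 67 named genes that passed and were followed over these fits, 47 passed in each fit without 1 library. Many of those genes were chosen for a small p or a large fold, so their share does not stand for all genes that passed. Of all 185 genes, 85 still passed without PBS library 3, 95 without PBS library 1 and 99 without OVA library a. No paired analysis was possible because the long OVA columns do not carry the replicate numbers of the labels. The titles number the biological replicates within each group and state no pairing between OVA and PBS mice. Depth limits the genes near 0, among them Il4, Il5 and Il13.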

Other observations

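Other genes with large folds belong to no list above. Moxd1, a monooxygenase-like protein, had 5.04, 4.93, 3.67 and 4.12 FPKM in OVA lungs and 0.664, 0.596 and 0.32 FPKM in PBS lungs (log2 fold 2.27 ± 0.26, adjusted p = 6.68e-05 in limma). Lrg1, a leucine-rich glycoprotein of the acute phase, had 32.5, 26.5, 31.5 and 22.4 FPKM in OVA lungs and 6.6, 13.3 and 8.63 FPKM in PBS lungs (1.56 ± 0.21, adjusted p = 0.000321). Gclc, the rate-limiting enzyme of glutathione synthesis, had 201, 175, 196 and 193 FPKM in OVA lungs, against 84.1, 101 and 76.5 FPKM in PBS lungs (1.14 ± 0.14, adjusted p = 0.000158), and was 1 of 2 genes that passed, both higher, among 20 antioxidant and metallothionein genes; 1 passed without any 1 library other than OVA library b.

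Heat shock chaperones gave no gene that passed of 19 in limma, although 10 had an unadjusted p under 0.05, all higher, as did 1164 of the 15682 genes in either direction. In 12 of the 19 all OVA libraries lay above all PBS libraries, as they did for 9.95% of all genes. In the fit of the long OVA and PBS libraries alone 12 of the 19 passed, all higher. Hspa1b, an inducible chaperone, had 36.4, 70.4, 70.2 and 36 FPKM in OVA lungs and 11.7, 8.88 and 11.2 FPKM in PBS lungs (2.21 ± 0.54, adjusted p = 0.0517). Of 25 cell cycle genes none passed, and 0 had an unadjusted p under 0.05. Esm1, a secreted proteoglycan of endothelium, was at 15.1 to 25.6 FPKM in OVA lungs and 26.1 to 41 FPKM in PBS lungs without passing (-0.83 ± 0.23, adjusted p = 0.102).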
